A study of Mus musculus with 9 samples.

Results

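The genes described here encode the machinery that makes peptides and loads them onto major histocompatibility complex (MHC) class I molecules. They are 10 genes chosen by name: the light chain gene B2m, the peptide transporter genes Tap1 and Tap2, the peptide editor genes Tapbp and Tapbpl, the immunoproteasome genes Psmb8, Psmb9 and Psmb10, the trimming peptidase gene Erap1 and the regulator gene Nlrc5. All 10 had a probe set that names no other gene, among 19938 genes measured in this way. The choice was made with earlier results of these data known.

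Class I molecules show short peptides from the cell's own proteins to CD8 T cells. The proteasome cuts proteins into peptides, the TAP transporter carries them into the endoplasmic reticulum, and ERAP1 trims them there before the tapasin-centred loading complex fits them into the groove of a heavy chain paired with beta-2 microglobulin. In the immunoproteasome, which is common in immune cells, 3 catalytic subunits replace their constitutive counterparts, and many genes of the pathway respond to interferon and to the activator NLRC5. Dendritic cells of the CD8 or cDC1 lineage are known for presenting captured antigen on class I.

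RNA was taken from cells sorted from the bone marrow of pelvis, tibia and femur of mice with 1 Zbtb46-GFP reporter allele (heterozygous), in which green fluorescence marks transcription of Zbtb46, a factor of classical dendritic cells. The 9 arrays formed 3 groups of 3: reporter-negative common dendritic cell progenitors (Zbtb46- CDPs), reporter-positive common dendritic cell progenitors (Zbtb46+ CDPs) and the precursors named Pre-CD8 DCs. All groups carried the same reporter allele and the labels name no other treatment, and no age, sex, sort gate or number of mice. The study set out to define expression signatures of these progenitors and their order in development, so the groups are compared in that order. The first step is Zbtb46+ CDPs against Zbtb46- CDPs, the second step is Pre-CD8 DCs against Zbtb46+ CDPs, and the whole span is Pre-CD8 DCs against Zbtb46- CDPs. A further comparison set Zbtb46+ CDPs against the mean of the other groups, which tests whether the steps differ in a gene. The comparisons share arrays, so their values for a gene are not independent.

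Each value is a signal of RMA, a method that turns the probes of a probe set into a single brightness, given here as log2. Array medians ran from 110.2 to 117.9 on the linear scale, and the median log2 signal of all probe sets was 6.82. A gene was called when its limma test had a Benjamini-Hochberg adjusted p under 0.05 over the 19938 genes. The labels do not say that replicates were separate mice or cultures, so p-values measure only the spread between these arrays, which may be technical. With 3 arrays a group, precision is limited by their number. Where groups are said to overlap or not, the share of all genes doing the same was not counted. In sorted bulk samples, fewer cells of a type and less RNA per cell cannot be told apart.

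The labels were checked against markers. The Zbtb46 probe set read 6.27, 6.92 and 6.41 in Zbtb46- CDPs and 7.50, 7.05 and 7.18 in Zbtb46+ CDPs, a log2 difference of 0.71 with limma adjusted p = 0.0261. All 11 cDC1 markers were measured, and their summed linear signal was 13290 to 14473 in Zbtb46- CDPs, 23021 to 26921 in Zbtb46+ CDPs and 39519 to 40446 in Pre-CD8 DCs, with no overlap. The 8 stem and progenitor markers summed to 10776 to 11769, 5337.6 to 6284.5 and 4554 to 4754 in the same order of groups. The 7 cDC2 markers gave 7106 to 7820, 7803 to 7979 and 5172 to 5941. The 7 plasmacytoid DC markers gave 4244 to 5373, 3716 to 3987 and 5089 to 5602, though 4 of them had a negative difference at the second step. Monocyte, lymphoid and erythroid lists were summed too and are not given here. The 12 granulocyte markers summed to 27359 to 32025 in Zbtb46- CDPs and to 1202 to 2204 in Pre-CD8 DCs. Such a sum follows its brightest genes. At the first step 8 of the 12 had a positive difference (median 0.23). Only 3 were called lower there and 0 higher, where 10.6% of all genes were lower and 3.85% higher. In Zbtb46+ CDPs the 12 summed to 7963 and 7980 on 2 arrays and to 32355 on replicate 1. Replicate 1 of both CDP groups was also low in Xist (log2 5.59 and 5.31, against a median of 11.97 over the arrays), a transcript of female cells. For the members, counts and calls that moved when these arrays were left out are given both ways. For the wider lists, the counts at each step and over the span are given both ways, with the values of named genes that lost a call. Another quantile normalization moved the split of calls over all genes from 768 higher and 2105 lower to 1118 and 1618 at the first step. At the second step the split moved from 949 higher and 370 lower to 788 and 590, and for Zbtb46+ CDPs against the mean of the other groups it moved from 272 and 1249 to 554 and 860.

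Promoters of 4 members are shown here because these genes followed 4 different courses over the 3 groups, described further on. B2m did not pass any test, Tap1 was called over the whole span only, Psmb8 was called at the second step and over the span, and Erap1 fell at the first step. The sequences are RefSeq's, and the promoter table used here (GRCm38.p6) held 7 of the 10 members. Each runs 5′ to 3′ on the plus strand from -250 to 49, with the start site counted as 0. Capitals mark matches on either strand to an interferon-stimulated response element (GAAANNGAAA), an Ets-IRF composite element (GGAANNGAAA), a gamma-activated site (TTCNNNGAA), a kappa B site (GGGNNTTTCC) or a CCAAT box (CCAAT). A GC box (GGGCGG) was searched too and is not in capitals. The windows are chr2:122147437-122147736 for B2m, chr17:34187306-34187605 for Tap1, chr17:34197945-34198244 for Psmb8 and chr13:74639603-74639902 for Erap1.
B2m: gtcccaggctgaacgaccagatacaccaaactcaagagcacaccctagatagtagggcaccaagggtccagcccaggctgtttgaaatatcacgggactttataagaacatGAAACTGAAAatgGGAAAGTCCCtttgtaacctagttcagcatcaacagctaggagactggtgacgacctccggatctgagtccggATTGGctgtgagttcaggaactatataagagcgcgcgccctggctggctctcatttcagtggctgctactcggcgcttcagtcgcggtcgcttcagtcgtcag
Tap1: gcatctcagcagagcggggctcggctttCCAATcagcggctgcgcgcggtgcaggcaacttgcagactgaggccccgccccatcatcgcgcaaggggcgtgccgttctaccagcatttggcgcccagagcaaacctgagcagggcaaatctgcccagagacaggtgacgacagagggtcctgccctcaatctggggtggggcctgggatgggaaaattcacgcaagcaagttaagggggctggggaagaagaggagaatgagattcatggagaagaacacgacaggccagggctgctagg
Psmb8: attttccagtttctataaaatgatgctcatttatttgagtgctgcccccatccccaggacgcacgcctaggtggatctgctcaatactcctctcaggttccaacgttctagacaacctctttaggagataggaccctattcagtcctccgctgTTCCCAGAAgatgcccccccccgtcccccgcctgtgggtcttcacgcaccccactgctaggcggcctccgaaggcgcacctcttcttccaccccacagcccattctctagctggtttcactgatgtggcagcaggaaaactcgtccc
Erap1: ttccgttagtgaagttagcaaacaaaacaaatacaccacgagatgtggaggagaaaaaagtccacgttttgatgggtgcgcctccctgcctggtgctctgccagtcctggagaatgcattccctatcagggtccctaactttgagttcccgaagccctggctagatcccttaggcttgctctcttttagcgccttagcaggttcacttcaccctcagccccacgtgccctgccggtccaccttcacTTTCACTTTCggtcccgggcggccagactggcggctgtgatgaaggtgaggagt
The B2m window held a response element from -139 to -130. On the minus strand it held a kappa B match from -126 to -117 and a CCAAT match from -53 to -49. Tap1 had a CCAAT match from -222 to -218 and, on the minus strand, a GC box from -176 to -171. Psmb8 had a gamma-activated match from -97 to -89. Erap1 had a response element from -4 to 5 on the minus strand and a GC box from 12 to 17 on the plus strand. Among 32851 promoters of this length, 3.44% held GAAANNGAAA, 2.72% GGAANNGAAA, 8.30% TTCNNNGAA, 1.63% GGGNNTTTCC, 37.4% CCAAT and 35.7% GGGCGG. A match is a description of the letters and shows no binding.

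The members also differ in where they lie. Tapbp, Psmb9, Tap1, Psmb8 and Tap2 are on chromosome 17, where Psmb9, Tap1, Psmb8 and Tap2 follow each other within the MHC class II region, between H2-DMb1 and H2-Ob. Tap1 and Psmb9 are read in opposite directions from start sites 226 bases apart, so that the Tap1 window printed above shares 275 of its 300 bases with the window of Psmb9. Psmb10 and Nlrc5 are on chromosome 8, B2m on chromosome 2, Tapbpl on chromosome 6 and Erap1 on chromosome 13.

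Over the whole span most members were higher in Pre-CD8 DCs. Of the 10 members, 7 rose (Tap1, Tap2, Tapbp, Tapbpl, Psmb8, Psmb9 and Psmb10), Erap1 fell, and B2m and Nlrc5 were not called. Over all genes 6.43% were called higher and 9.23% lower. The median log2 difference of the members was 0.53, against 0.01 over all genes. The members were chosen with earlier results of these data known, so the contrast with all genes is a description. The largest rise was 1.76-fold, for Tapbp.

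The rise was not spread evenly over the steps. At the first step Tapbp was called higher, Psmb10 and Erap1 were called lower and 7 members were not called, with a median of 0.02 against 0.04 over all genes. Of all genes, 3.85% were called higher and 10.6% lower at this step. At the second step Tap2, Psmb8, Psmb9 and Psmb10 rose, none fell, and the median was 0.26 against -0.03 over all genes. The background there was 4.76% higher and 1.86% lower. Against the mean of the other groups, Zbtb46+ CDPs were lower in Tap2, Psmb10 and Erap1 and higher in none, with 6.26% of all genes lower and 1.36% higher. Without the arrays low in Xist, 0 members were higher and 3 lower at the first step (Tap2, Psmb10 and Erap1), 5 were higher and 0 lower at the second (Tap1, Tap2, Psmb8, Psmb9 and Psmb10), and over the span the counts were again 7 and 1. Against the mean of the other groups Psmb8 joined Tap2, Psmb10 and Erap1, giving 4 lower and 0 higher. Over all genes the calls without these arrays were more numerous too, with 8.71% higher and 13.8% lower at the first step, 12.5% and 7.87% at the second, 9.4% and 10.8% over the span and 7.54% and 12.4% against the mean of the other groups.

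**Figure D1:**
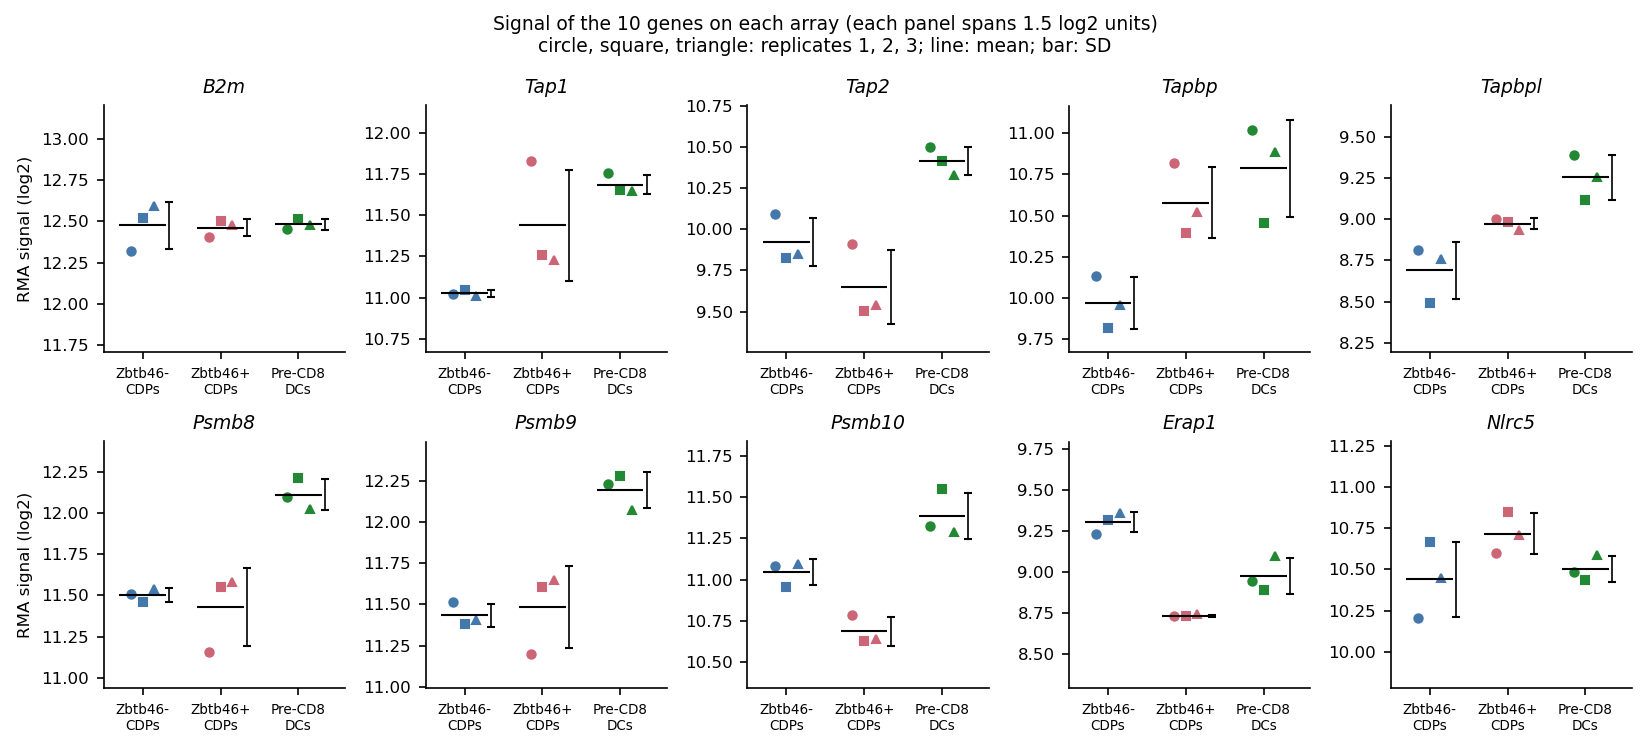
Log2 RMA signal (y axis) of the 10 genes on each of the 9 arrays, by group (x axis). Circles, squares and triangles are replicates 1, 2 and 3, lines are means and bars are SDs, and every panel spans the same number of log2 units. Pre-CD8 DCs lie above both CDP groups on every array for Tap2, Tapbpl, Psmb8, Psmb9 and Psmb10, while B2m stays between 12.32 and 12.59. The share of all genes with such a layout was not counted.

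The light chain gene B2m encodes the small subunit shared by all classical class I molecules. Its log2 signal was 12.32, 12.52 and 12.59 in Zbtb46- CDPs, 12.41, 12.50 and 12.48 in Zbtb46+ CDPs, and 12.45, 12.52 and 12.48 in Pre-CD8 DCs. The 3 groups overlapped throughout. Over the whole span the log2 difference was 0.01 with a 95% interval from -0.18 to 0.19 (limma adjusted p = 0.986). The upper bound of that interval is below the smallest called rise of a member over the span, 0.34 for Psmb10. The Psmb10 interval ran from 0.14 to 0.55 and overlapped that of B2m, and no difference between the genes was tested.

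The immunoproteasome genes Psmb8, Psmb9 and Psmb10 encode its catalytic subunits beta 5i, beta 1i and beta 2i. Psmb8 read 11.51, 11.46 and 11.54 in Zbtb46- CDPs, 11.16, 11.55 and 11.58 in Zbtb46+ CDPs, and 12.10, 12.22 and 12.03 in Pre-CD8 DCs. The CDP groups overlapped, and every Pre-CD8 DC array lay above every CDP array. Psmb8 rose by 0.69 (SE 0.114) at the second step, a fold of 1.61, with limma adjusted p = 0.00828. The first step gave -0.07 (SE 0.114, limma adjusted p = 0.688).

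Psmb9 had the same layout. It read 11.51, 11.38 and 11.41 in Zbtb46- CDPs, 11.20, 11.60 and 11.65 in Zbtb46+ CDPs, and 12.23, 12.28 and 12.07 in Pre-CD8 DCs. The first-step difference was 0.05 (limma adjusted p = 0.802), and the second step was a rise of 0.71 (SE 0.122, limma adjusted p = 0.00962). For both genes the lowest Zbtb46+ CDP array was replicate 1, the array with the high granulocyte sum, below all 3 Zbtb46- CDP arrays for each. Without the arrays low in Xist the second-step rises were 0.55 for Psmb8 and 0.57 for Psmb9, still called (limma adjusted p = 0.00319 and 0.00329), and the first-step differences were 0.06 and 0.23, neither called. In Zbtb46+ CDPs against the mean of the other groups, Psmb8 gave -0.38 and Psmb9 -0.33 (limma adjusted p = 0.0512 and 0.102). Without Zbtb46+ CDPs replicate 1, Psmb8 gave -0.24 there and was called lower (limma adjusted p = 0.0393).

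Psmb10 went down before it went up. Its signal was 11.08, 10.96 and 11.10 in Zbtb46- CDPs, 10.79, 10.63 and 10.64 in Zbtb46+ CDPs, and 11.33, 11.55 and 11.29 in Pre-CD8 DCs. None of the 3 groups overlapped, with Zbtb46+ CDPs lowest and Pre-CD8 DCs highest. It fell by 0.36 on the log2 scale at the first step (SE 0.0904, limma adjusted p = 0.0283) and rose by 0.70 at the second (SE 0.0904, limma adjusted p = 0.00221). Zbtb46+ CDPs lay 0.53 below the mean of the other groups (log2 difference -0.53, limma adjusted p = 0.00598).

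The fall of Psmb10 at the first step was the less firm of its changes. It was no longer called without Zbtb46- CDPs replicate 1 or 3 or without Zbtb46+ CDPs replicate 2 or 3 (limma adjusted p from 0.0770 to 0.104), nor after another quantile normalization (-0.23, limma adjusted p = 0.104). Over the whole span Psmb10 was 0.34 higher (limma adjusted p = 0.0313), which was not called with the replicate number as a block (limma adjusted p = 0.0511) or when any 1 array of Zbtb46- CDPs, or replicate 1 or 2 of Pre-CD8 DCs, was left out (0.0630 to 0.110). The second-step rise of Psmb10 was called under all 19 alternatives tried, as were those of Psmb8, Psmb9 and Tap2.

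**Figure D2:**
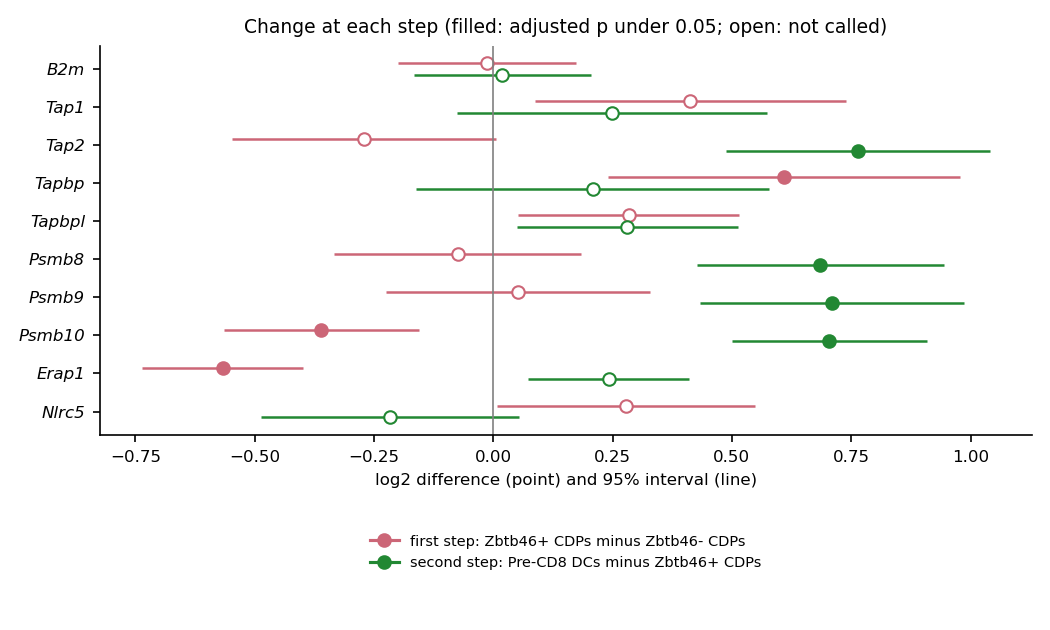
Log2 difference (x axis) of the 10 genes (y axis) at the first step and at the second step, with 95% intervals as lines; filled points have a limma adjusted p under 0.05. The filled points of Tap2, Psmb8, Psmb9 and Psmb10 at the second step lie between 0.69 and 0.76, and at the first step Tapbp (0.61), Psmb10 (-0.36) and Erap1 (-0.57) are filled.

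The constitutive counterparts of these subunits are encoded by Psmb5, Psmb6 and Psmb7. Psmb5 and Psmb6 fell at the first step, by 0.35 and 0.37 on the log2 scale, and Psmb5 rose by 0.40 at the second (limma adjusted p = 0.0246, 0.0260 and 0.0244). Psmb6 at the second step (0.30) and Psmb7 at either step (-0.40 and 0.43) were not called. Without the arrays low in Xist, Psmb5 at the first step was -0.25 and not called, Psmb6 at the second was 0.32 and called (limma adjusted p = 0.0642 and 0.0232), and Psmb7 gave -0.20 and 0.22, not called. The change of each immunoproteasome subunit was therefore also measured against its counterpart on the same array, as the difference of their log2 signals. Only the change of that difference can be read, since levels of different probe sets are not comparable.

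Measured in this way, the mean difference was larger in each later group for Psmb8 and Psmb9. For Psmb10 the first-step change was 0.04, and it was negative without Zbtb46+ CDPs replicate 1. The difference Psmb8 minus Psmb5 was -0.27, -0.12 and -0.05 in Zbtb46- CDPs, -0.06, 0.29 and 0.16 in Zbtb46+ CDPs, and 0.39, 0.45 and 0.40 in Pre-CD8 DCs. Psmb9 minus Psmb6 was -0.78, -0.64 and -0.64, then -0.58, -0.02 and -0.17, then 0.21, 0.20 and 0.03 in the same order of groups. For Psmb9 none of the groups overlapped, and for Psmb8 the CDP groups overlapped through Zbtb46+ CDPs replicate 1.

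The mean change of Psmb8 minus Psmb5 was 0.28 at both steps (two-sided exact permutation p = 0.2 and 0.1) and 0.56 over the span (exact permutation p = 0.1). Psmb9 minus Psmb6 changed by 0.42, 0.41 and 0.83 in these comparisons, each with an exact permutation p = 0.1, the smallest that 3 arrays against 3 can give. Psmb10 minus Psmb7 changed by 0.04, 0.27 and 0.31 (exact permutation p = 1, 0.4 and 0.1). Its Zbtb46+ CDP values of 1.04, 0.18 and 0.32 spread over both other groups, and without replicate 1 the first-step change was -0.23. Adjusted over the 9 tests, exact permutation p ran from 0.15 to 1, so the design could not reach 0.05 for any of them.

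These tests did not use the pairing of the CDP groups by replicate number, which was taken from the data and is uncertain. Within the pairs of same-numbered CDP arrays, Psmb8 minus Psmb5 changed by 0.20, 0.41 and 0.22 from Zbtb46- to Zbtb46+ CDPs, positive in all 3 pairs. Psmb9 minus Psmb6 changed by 0.19, 0.61 and 0.46, again positive in all 3, and Psmb10 minus Psmb7 by 0.48, -0.20 and -0.18. These values were added after the data were seen and carry no test.

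**Figure D3:**
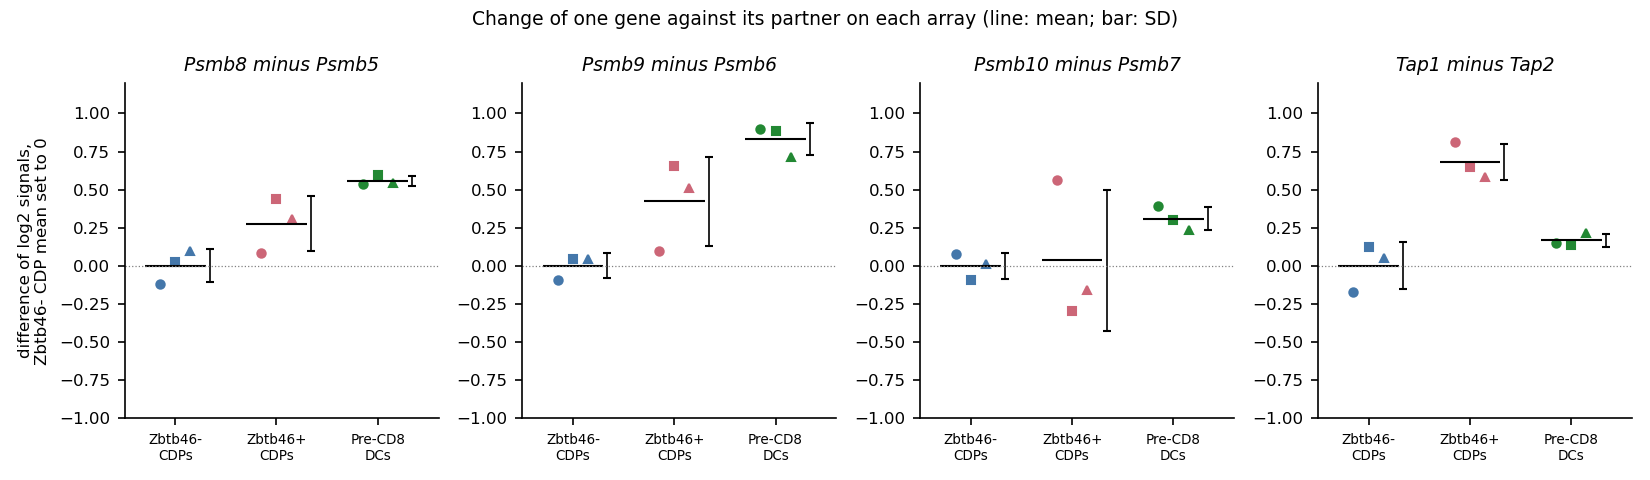
Difference of the log2 signals of a gene and its partner on each array (y axis, with the Zbtb46- CDP mean set to 0), by group (x axis). Circles, squares and triangles are replicates 1, 2 and 3, lines are means and bars are SDs. Psmb8 minus Psmb5 and Psmb9 minus Psmb6 are higher on average in each later group, with mean changes of 0.56 and 0.83 over the span, and Tap1 minus Tap2 is highest in Zbtb46+ CDPs.

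The activator caps of the proteasome are encoded by Psme1 and Psme2, the subunits of PA28. Both rose at the second step, by 0.48 and 0.54 (limma adjusted p = 0.00398 and 0.0178), and over the span, by 0.59 and 0.49. Neither was called at the first step (0.10 and -0.05, the second of which was 0.10 without the arrays low in Xist).

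Tap1 and Tap2 encode the subunits that pair to form the transporter. Tap1 read 11.02, 11.05 and 11.01 in Zbtb46- CDPs, 11.83, 11.26 and 11.23 in Zbtb46+ CDPs, and 11.76, 11.66 and 11.65 in Pre-CD8 DCs. Every Zbtb46+ CDP array and every Pre-CD8 DC array was above every Zbtb46- CDP array, and Zbtb46+ CDPs replicate 1 was above all Pre-CD8 DC arrays. Tap1 rose by 0.66 over the span (SE 0.144, fold 1.58, limma adjusted p = 0.0126). The steps of 0.41 and 0.25 were not called (limma adjusted p = 0.0922 and 0.401).

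That array set the spread of Tap1. Without Zbtb46+ CDPs replicate 1, the steps were 0.22 and 0.44 and both were called (limma adjusted p = 0.0404 and 0.00398). With both arrays low in Xist left out, the first step was 0.22 (limma adjusted p = 0.0585) and the second 0.44 (limma adjusted p = 0.00378). Without Pre-CD8 DCs replicate 1 the span was 0.63 and not called (limma adjusted p = 0.0536). The granulocyte sum, the low Xist and the high Tap1 signal lay on the same array, and their part in the result was not tested.

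Tap2 read 10.09, 9.82 and 9.85 in Zbtb46- CDPs, 9.91, 9.50 and 9.54 in Zbtb46+ CDPs, and 10.50, 10.41 and 10.33 in Pre-CD8 DCs. The CDP groups overlapped through Zbtb46+ CDPs replicate 1, and the Pre-CD8 DCs lay above both. Tap2 rose by 0.76 at the second step (SE 0.122, fold 1.70, limma adjusted p = 0.00687), the largest rise of a member there. At the first step it gave -0.27 (limma adjusted p = 0.179). Without Zbtb46+ CDPs replicate 1 this was -0.40 and called lower (limma adjusted p = 0.0175), and without both arrays low in Xist it was -0.31 and called lower (limma adjusted p = 0.0230).

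Zbtb46+ CDPs had less Tap2 than the mean of the other groups (log2 difference -0.52, limma adjusted p = 0.0220), a call that was lost without Zbtb46+ CDPs replicate 2 or 3 or Pre-CD8 DCs replicate 1 (limma adjusted p from 0.0566 to 0.0928). Over the span Tap2 was 0.49 higher (limma adjusted p = 0.0239), not called when any 1 Pre-CD8 DC array or Zbtb46- CDPs replicate 2 or 3 was left out (0.0514 to 0.0956). The difference Tap1 minus Tap2 was 0.93, 1.23 and 1.16 in Zbtb46- CDPs, 1.92, 1.76 and 1.69 in Zbtb46+ CDPs, and 1.26, 1.24 and 1.32 in Pre-CD8 DCs. None of the groups overlapped, with Zbtb46+ CDPs highest.

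The change of Tap1 minus Tap2 was 0.68 at the first step and -0.51 at the second, each with an exact permutation p = 0.1 (0.2 adjusted over the 6 tests of pairs added after the data were seen). Tap1 was also set against Psmb9, with which it shares its promoter region. Tap1 minus Psmb9 changed by 0.36, -0.46 and -0.10 at the first step, the second and over the span (exact permutation p = 0.5, 0.2 and 0.3), and all groups overlapped. On the 2 Zbtb46+ CDP arrays other than replicate 1 the difference was -0.34 and -0.42, within the range of -0.63 to -0.33 of the other groups, and on replicate 1 it was 0.63.

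Tapbp encodes tapasin, which bridges TAP and the class I heavy chain and edits the peptide. Its signal was 10.13, 9.82 and 9.96 in Zbtb46- CDPs, 10.82, 10.40 and 10.52 in Zbtb46+ CDPs, and 11.02, 10.46 and 10.89 in Pre-CD8 DCs. The Zbtb46- CDPs lay below all other arrays, and the other groups overlapped. Tapbp rose by 0.61 at the first step (SE 0.163, fold 1.53, limma adjusted p = 0.0372), and the second step gave 0.21 (limma adjusted p = 0.545). The span gave a rise of 0.82 (SE 0.163, limma adjusted p = 0.00811).

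The first-step call of Tapbp was close to the threshold. It was lost without any 1 array of Zbtb46- CDPs, without Zbtb46+ CDPs replicate 1 or 3 and without Pre-CD8 DCs replicate 3 (limma adjusted p from 0.0551 to 0.108). It was also lost when arrays were centred on their medians (0.57, limma adjusted p = 0.0615) and when both arrays low in Xist were left out (0.57, limma adjusted p = 0.0523). The rise over the span was called under all 19 alternatives.

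Tapbpl encodes TAPBPR, a tapasin-related editor that works outside the loading complex. It read 8.82, 8.49 and 8.76 in Zbtb46- CDPs, 9.0, 8.98 and 8.94 in Zbtb46+ CDPs, and 9.39, 9.12 and 9.25 in Pre-CD8 DCs. None of the 3 groups overlapped, with Zbtb46- CDPs lowest and Pre-CD8 DCs highest. The span was a rise of 0.56 (SE 0.103, fold 1.48, limma adjusted p = 0.00494), called under all 19 alternatives. The steps were equal, 0.28 each, and neither was called (limma adjusted p = 0.103 and 0.166), except that the first was 0.44 and called after another quantile normalization (limma adjusted p = 0.0122).

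Erap1 encodes the aminopeptidase that trims peptides in the endoplasmic reticulum, and it was the member that went the other way. Its signal was 9.23, 9.32 and 9.36 in Zbtb46- CDPs, 8.73, 8.73 and 8.74 in Zbtb46+ CDPs, and 8.94, 8.89 and 9.10 in Pre-CD8 DCs. No groups overlapped, with Zbtb46- CDPs highest and Zbtb46+ CDPs lowest. Erap1 fell by 0.57 on the log2 scale at the first step (SE 0.0748, limma adjusted p = 0.00136), a call kept under all 19 alternatives. It then gave 0.24 at the second step, not called (limma adjusted p = 0.102).

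Over the span Erap1 fell by 0.33 on the log2 scale (limma adjusted p = 0.0166). This call was lost without Zbtb46- CDPs replicate 2 or 3 and without Pre-CD8 DCs replicate 1 or 2 (limma adjusted p from 0.0555 to 0.0738), and after another quantile normalization (-0.28, limma adjusted p = 0.0941). Zbtb46+ CDPs lay below the mean of the other groups (log2 difference -0.40, limma adjusted p = 0.00821), a call lost under the same normalization (-0.27, limma adjusted p = 0.0936). Erap1 and Psmb10 were the members called lower at the first step, and both were lower in Zbtb46+ CDPs than in the mean of the other groups.

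Nlrc5 encodes a transactivator of class I genes. It had 19 probe sets with no other gene, and the brightest of these, used for the counts above, read 10.21, 10.67 and 10.45 in Zbtb46- CDPs, 10.60, 10.85 and 10.71 in Zbtb46+ CDPs, and 10.48, 10.44 and 10.59 in Pre-CD8 DCs. The groups overlapped, and no comparison was called (log2 differences 0.28, -0.22 and 0.06 at the first step, the second and over the span). With array weights it was called higher at the first step (0.30, limma adjusted p = 0.0305). Most other Nlrc5 probe sets did not follow it. Of the 19, 14 had a negative difference at the first step and 18 a positive one at the second.

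The mean over the 19 Nlrc5 probe sets was 8.26, 8.42 and 8.36 in Zbtb46- CDPs, 8.39, 8.24 and 8.03 in Zbtb46+ CDPs, and 8.64, 8.47 and 8.64 in Pre-CD8 DCs. The Pre-CD8 DC arrays were above all CDP arrays, and the CDP groups overlapped. On this mean the log2 differences were -0.13, 0.36 and 0.24, the second with limma adjusted p = 0.0707. With each probe set of the array tested on its own, 0 of the 19 were higher and 1 lower at the first step, 2 higher and 0 lower at the second, and 1 higher and 0 lower over the span. Of the 21789 probe sets tested in this way, 3.69%, 4.58% and 6.15% were higher in these comparisons and 10.8%, 1.75% and 8.94% lower. At the first step the direction for Nlrc5 differed between probe sets, with 5 positive and 14 negative. At the second step 18 of the 19 were positive, all but the brightest, and over the span 18 were positive too. Of the 19938 genes, 8465 were negative at the first step, 8235 positive at the second and 10329 positive over the span. The 19 probe sets read 1 gene on the same arrays, so their signs are not independent.

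**Figure D4:**
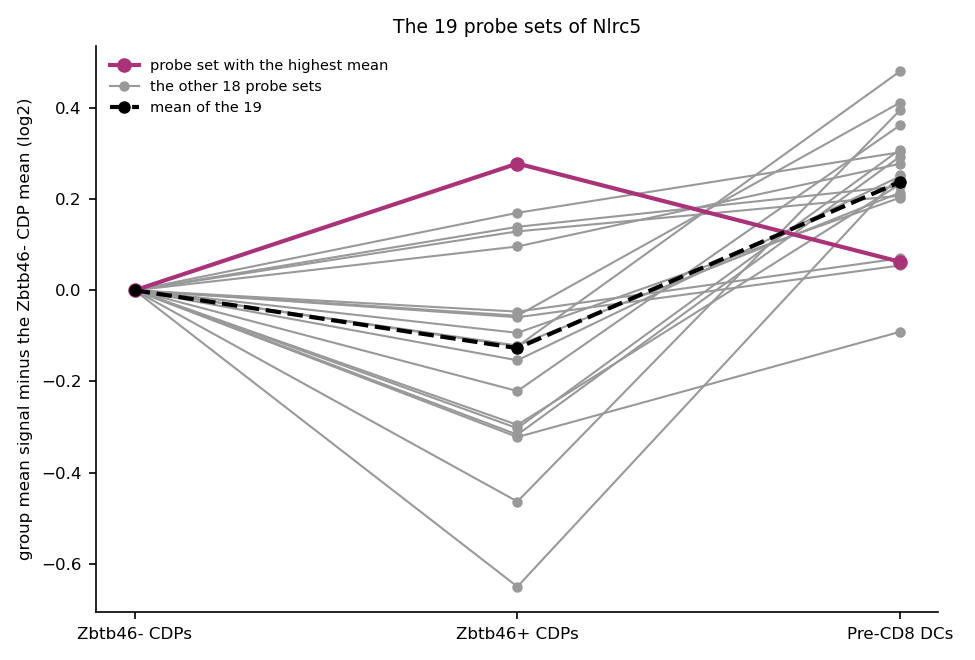
Group mean log2 signal of each of the 19 Nlrc5 probe sets minus its mean in Zbtb46- CDPs (y axis), by group (x axis). The thick line is the brightest probe set, which is highest in Zbtb46+ CDPs, thin lines are the other probe sets, and the dashed line is the mean of all 19, at -0.13 in Zbtb46+ CDPs and 0.24 in Pre-CD8 DCs.

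The members also differed in how closely they tracked each other over the 9 arrays. Pearson's r was 0.983 for Psmb8 and Psmb9, 0.927 for Tap2 and Psmb10, 0.918 for Tapbp and Tapbpl and 0.888 for Tap1 and Tapbp. It was negative for Tapbp and Erap1 (-0.636) and for Psmb10 and Nlrc5 (-0.626). The arrays fall into 3 groups and share their labelling, so these values describe the group pattern and carry no test. Outside the members and among genes brighter than the median gene, Ctss, the cathepsin S gene of class II processing, was the nearest to Psmb9 (r 0.991) and the third nearest to Psmb8 (0.986), after Sri (0.989) and Cnih4 (0.988). Pde1b and Pml were the nearest to Tap1 (0.991 each), Nmt1 to Tap2 (0.986), Sla to Tapbp (0.989), Rap2b to Tapbpl (0.981), Enpp4 to Psmb10 (0.986) and Nkrf to Erap1 (0.974). Slc12a5 was the nearest to B2m (0.887) and Fam25c to the brightest Nlrc5 probe set (0.962). Each nearest gene has the highest r of a search over many genes on 9 arrays.

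Other genes of the class I route were counted from lists by role. Of the class I heavy chains and related molecules, 11 of 21 were measured. H2-K1 and H2-D1, the classical heavy chains, have here only probe sets shared with other genes and were not analysed here. At the first step 1 of the 11 was higher and 3 lower, at the second 3 higher and 0 lower, and over the span 2 higher and 2 lower. Over all genes the shares higher and lower were 3.85% and 10.6% at the first step, 4.76% and 1.86% at the second and 6.43% and 9.23% over the span, and each list below is to be read against them. Without the arrays low in Xist, the counts of the 11 were 2 higher and 1 lower, 3 and 1, and 2 and 2, against the larger shares of all genes given above for that setting. H2-M3, which presents formylated peptides, rose by 1.17 at the second step, from 8.17 ± 0.16 to 9.34 ± 0.07 (SD, n = 3, limma adjusted p = 0.000123). H2-T24 rose by 0.68 and then by 0.94 (limma adjusted p = 0.00587 and 0.00228), starting from 6.88 in Zbtb46- CDPs, close to the median of the table, so that the first change may be understated.

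Cd1d1, which presents lipids, fell by 1.22 and Mr1, which presents vitamin B metabolites, fell by 0.83 on the log2 scale at the first step. H2-Q4 fell by 0.33 there and rose by 0.43 at the second step. In Zbtb46+ CDPs the mean signals of Mr1 (6.36) and H2-Q4 (6.67) were below the median of the table and were not shown to be above background, so the size of these changes may be understated. Without the arrays low in Xist the first-step differences of Mr1 and H2-Q4 were -0.53 and -0.25 and not called (limma adjusted p = 0.0558 and 0.0880). Over the span Cd1d1 fell by 1.26 and Mr1 by 0.80 on the log2 scale, while H2-T24 and H2-M3 rose by 1.63 and 1.10.

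The 7 chaperones of the endoplasmic reticulum that fold class I chains were all measured, with 3 lower and 0 higher at the first step, where 10.6% of all genes were lower. Calr (calreticulin), Hspa5 (BiP) and Ganab (glucosidase II) fell by 0.55, 0.54 and 0.58 on the log2 scale. At the second step, where 4.76% of all genes were higher, Hspa5 rose by 0.50 and the other 6 were not called. Over the span only Ganab was called, and it fell by 0.66 on the log2 scale, where 9.23% of all genes were lower. Canx and Pdia3, the calnexin and ERp57 genes, gave -0.60 and -0.28 at the first step and 0.22 and 0.40 at the second, none of them called. With the arrays low in Xist omitted, Canx gave -0.45 and 0.02 and Pdia3 -0.08 and 0.13, and the 7 counted 0 higher and 3 lower at the first step and 2 higher and 0 lower at the second (Hspa5 and Calr). Over the span 0 were then higher and 2 lower (Ganab and Bcap31), beside 10.8% of all genes lower.

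Of 13 other proteasome genes, 0 were higher and 7 lower at the first step, and 6 were higher and 0 lower at the second. Over the span 3 were higher and 2 lower. The shares of all genes were 10.6% lower at the first step, 4.76% higher at the second, and 6.43% higher and 9.23% lower over the span. If the arrays low in Xist were omitted, the counts were 1 higher and 5 lower, 7 and 1, and 4 and 2, with Psmb5 and Psme3 no longer lower at the first step (Psme3 -0.38 with all arrays and -0.23 without, limma adjusted p = 0.0895). The proteasome assembly chaperones Psmg1, Psmg3 and Psmg2 had the largest falls at the first step, 0.77, 0.64 and 0.62 on the log2 scale. At the second, Psmg4 (0.74), Psme2 (0.54) and Psme1 (0.48) rose most. Pomp, the assembly factor of the proteasome, rose by 0.44 at the second step and by 0.56 over the span. The largest change over the span was that of Psmg1, which was called lower (log2 difference -0.79). The median log2 difference of the 13 was -0.38 and then 0.39.

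Among 6 measured peptidases of the cytosol and endosomes, 0 were higher and 4 lower at the first step (10.6% of all genes lower), where Blmh, Thop1 and Lap3 fell by 0.88, 0.66 and 0.62 on the log2 scale. The fourth was Tpp2, tripeptidyl peptidase II, which fell by 0.42. Lap3, leucine aminopeptidase, rose by 0.57 at the second step, and over the span 3 of the 6 were lower and 0 higher (9.23% of all genes lower). The 3 were Blmh, Thop1 and Tpp2, with log2 differences of -0.86, -0.75 and -0.32. The counts of this list were the same without the arrays low in Xist.

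Of 11 measured transcription factors of class I promoters, 0 were called at the first step, 1 higher and 0 lower at the second, and 0 over the span, beside 4.76% of all genes higher at the second. When the arrays low in Xist were left out, 0 were called at the first step, 5 were higher at the second (12.5% of all genes) and 2 over the span. With all arrays the exception was Irf1, an interferon-induced activator, which rose by 0.39 at the second step (limma adjusted p = 0.0330), from 7.63 ± 0.05 to 8.02 ± 0.14 (SD, n = 3). Irf1 was lower in Zbtb46+ CDPs than in the mean of the other groups (log2 difference -0.32, limma adjusted p = 0.0370), a call lost without the arrays low in Xist (-0.30, limma adjusted p = 0.0579). These values are of the brighter of 2 Irf1 probe sets, and the other gave 0.02 at the second step and 0.06 against the mean of the other groups, neither called (limma adjusted p = 0.909 and 0.689).

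**Figure D5:**
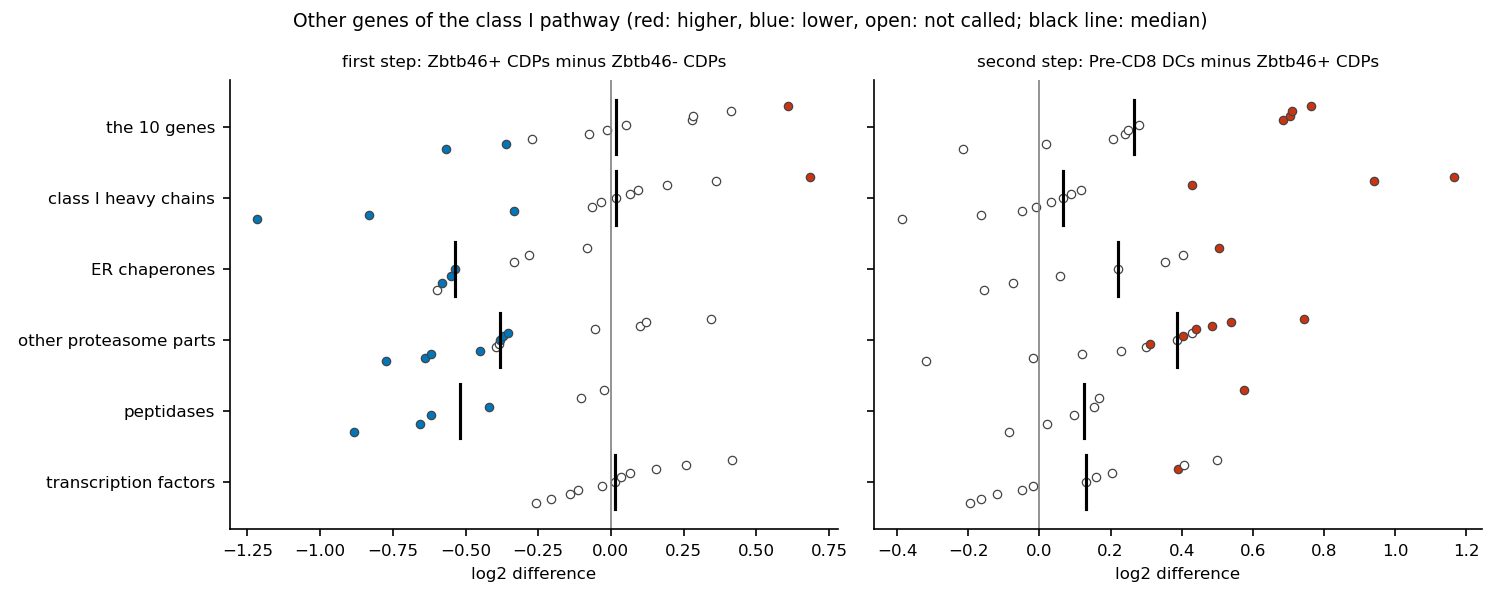
Log2 difference (x axis) of each measured gene in the 6 lists (y axis), at the first step on the left and the second step on the right. Filled points have a limma adjusted p under 0.05 (red higher, blue lower), and black lines are list medians, which for other proteasome parts are -0.38 and 0.39.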

How the data were processed

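Total RNA of 9 sorted samples was hybridised to Affymetrix mouse gene arrays, after biotin labelling with a kit for picogram amounts per the labels' protocols. The deposited values are RMA signal intensity values, made by the authors in Affymetrix Expression Console per the submitters' processing notes. Versions, settings and genome build are not given in the sources used here. The values were on a linear scale (7.45 to 20455.6), so log2 was taken with no pseudocount, no further scaling and no filter. No pair of arrays held identical values.

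Of 28853 probe sets, 23410 were in the annotation table used, 21789 of them with 1 gene symbol and 1621 with several, and 21698 of the former matched RefSeq by gene ID. For genes with several probe sets, the one with the highest mean was kept, which gave 19938 genes. A linear model of group means over all 9 arrays was used (R 4.3.3 with limma 3.58.1, functions lmFit and eBayes), with Benjamini-Hochberg adjustment over all genes and calls at adjusted p under 0.05. Within-array differences of 2 genes were compared by two-sided exact permutation. Promoters and motifs were read from RefSeq windows with Python 3.11.15. The fit was checked on simulated arrays with known changes.

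All 10 members are named whatever their values. The 3 genes most correlated with each member were computed. From the wider lists, the called genes with the 3 largest changes at each step and over the span are named. A fixed set of subunits, chaperones and Irf1 is named too. Against the mean of the other groups, only Irf1 of the wider lists is given. A gene so named may be given at the other steps too. Nrdc is listed under its synonym Nrd1. The members and lists were chosen with earlier results of these data known.

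Replicate numbers were checked for pairing. For arrays of the same number in both CDP groups, residuals had r of 0.51, 0.42 and 0.36. Zbtb46- CDPs with Pre-CD8 DCs gave -0.01, -0.03 and 0.03, and Zbtb46+ CDPs with Pre-CD8 DCs gave 0.11, 0.07 and 0.17. Between CDP arrays of different numbers, r ran from -0.51 to 0.38. The 0.38, for Zbtb46- CDPs replicate 3 with Zbtb46+ CDPs replicate 2, was above the 0.36 of the pair numbered 3. Residuals within a group also depend on each other. The numbers were taken to pair the CDP groups, from the data and not from the labels, and this pairing is uncertain. Alternatives were the replicate block, dropping the 30% dimmest genes, the mean of probe sets, quantile normalization, median centring, array weights, robust moderation with an intensity trend, separate fits for each pair of groups, adjusted p under 0.01, each array left out, and both arrays low in Xist left out. Each probe set on its own, 2 pairs with Tap1, the wider lists without the arrays low in Xist and the changes within pairs of same-numbered CDP arrays were added after seeing the data.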

Additional observations from a re-analysis of the deposited data

How the results depend on the processing

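The number of arrays and the spread of Zbtb46+ CDPs (median SD of a gene 0.153 on the log2 scale, against 0.103 in Zbtb46- CDPs and 0.0815 in Pre-CD8 DCs) limit what could be called. At the second step, members higher numbered 4 or 5 and members lower 0 under every alternative. Over all genes the share higher there ran from 1.88% at adjusted p under 0.01 to 12.5% without the arrays low in Xist. The share lower ran from 0.848% to 7.87% under the same settings. The first-step count of 1 higher became 2 after another quantile normalization (Tapbpl added) and 3 with array weights. The weights added Tap1 (0.277, limma adjusted p = 0.0246) and Nlrc5 (0.302, limma adjusted p = 0.0305). That count became 0 with median centring, at adjusted p under 0.01 and without the arrays low in Xist. The first-step count of 2 lower became 1 after quantile normalization and at adjusted p under 0.01, and 3 with array weights (Tap2 added, -0.302, limma adjusted p = 0.0189) and without the arrays low in Xist. Over all genes, 13.9% were higher and 18.3% lower at that step with array weights, 5.61% and 8.12% after quantile normalization, 3.18% and 11.7% with median centring and 1.86% and 5.19% at adjusted p under 0.01. Over the span, 7 higher and 1 lower became 4 and 0 at adjusted p under 0.01, and the lower count 0 after quantile normalization. Of all genes, 4.21% were higher and 5.2% lower over the span at adjusted p under 0.01, and 9.03% were lower after quantile normalization. With 1 array left out in turn, the first step had 0 to 1 higher and 1 to 3 lower, the span 4 to 7 higher and 0 to 1 lower. Of all genes, 2.27% to 10% were then higher and 6.57% to 16.4% lower at the first step. Over the span 4.74% to 8.81% were higher and 6.33% to 12.8% lower. With the replicate block, Psmb10 over the span (0.34, limma adjusted p = 0.0511) lost its call and no other member's call changed in the 4 comparisons. The change of Psmb10 minus Psmb7 at the first step ran from -0.23 to 0.20 with 1 array left out.

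Signs turned in uncalled values. B2m gave 0.155 at the first step and -0.110 at the second after quantile normalization, and 0.133 in Zbtb46+ CDPs against the mean of the other groups. With array weights B2m was -0.0138 at the second step and -0.106 over the span, and without the arrays low in Xist -0.00861 and -0.0737. With 1 array left out, B2m ran from -0.0929 to 0.0444 at the first step, -0.00861 to 0.0380 at the second, -0.0737 to 0.0635 over the span and -0.0560 to 0.0126 against the mean of the other groups. Psmb8 at the first step was 0.0453 after quantile normalization, 0.00225 with array weights, 0.0644 without the arrays low in Xist and -0.151 to 0.0613 with 1 array left out, and Psmb9 there -0.0315 to 0.195. Against the mean of the other groups, Tap1 in Zbtb46+ CDPs was -0.0732 with array weights, -0.114 without the arrays low in Xist and -0.112 to 0.187 with 1 array left out. Tapbpl there was -0.0369 with median centring, -0.0593 with array weights and -0.0476 to 0.0354 with 1 array left out. Nlrc5 as the mean of its probe sets was -0.13, 0.36 and -0.25 at the first step, the second and against the mean of the other groups. The brightest Nlrc5 probe set was, over the span, -0.0538 without the arrays low in Xist and -0.0538 to 0.175 with 1 array left out. The cause was not tested.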
